A study of Mus musculus with 17 samples.

Results

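Il23a, 3 cytokine genes of the IL6 family and the receptor and signalling genes that serve them were examined in cultured mouse ovarian follicles. The members were 10 gene symbols out of 25198 rows of the deposited count table: the ligands Il23a, Il6, Il11 and Lif, the receptors Il6st, Il6ra, Lifr and Osmr, the transcription factor Stat3 and its inhibitor Socs3. Il23a was chosen by its fall from Control to treated follicles in these same libraries, so its values in that comparison are a description and carry no test. The other 9 were taken as relatives of one signalling family. All 10 were in the table, and 9 passed the filter on low counts that left 9603 genes to test. Il11 did not pass.

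The follicles came from CD1 mice 16 days old and had grown for 8 days to the antral stage in eIVFG, an encapsulated in vitro follicle growth system. Tyrphostin samples were exposed for 4 h to human chorionic gonadotropin (hCG, which acts on the luteinizing hormone receptor and starts ovulation in culture) together with 10 µM Tyrphostin-AG1478 in DMSO; AG1478 inhibits the kinase of the epidermal growth factor receptor (EGFR). Control samples carry the treatment label Control. One protocol text covers all samples and does not say if hCG and DMSO were also given to Control follicles. Each sample pooled 3 follicles, and RNA was made into Smart-Seq2 libraries, a full-length cDNA method. There were 11 Control libraries (6 in batch 1, 5 in batch 2) and 6 Tyrphostin libraries (3 in each batch). Separate animals or cultures are not named, so p-values measure the spread between these libraries, which may be partly technical. The library names group the 11 Control libraries into 5 sets, and the main fit counted each library separately.

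Cytokines of the IL6 family are secreted proteins that signal through receptor complexes sharing the subunit gp-130, encoded by Il6st. A ligand first binds its own receptor chain, such as that encoded by Il6ra or Lifr, and the complex then activates JAK kinases, which phosphorylate STAT3. STAT3 enters the nucleus and induces, among other genes, Socs3, whose product shuts the receptor off. IL23 is built from the product of Il23a and the product of Il12b, and uses a receptor of its own that also acts through STAT3. In the ovulating follicle, Il6 is known as a transcript of cumulus and granulosa cells that rises after the luteinizing hormone surge, when EGF-like ligands carry the signal inward.

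The promoters of Il6 and Lif are shown first, because these are the members, other than Il23a, that were called lower in treated follicles. RefSeq promoter sequences (GRCm38.p6) matched 9 of the 10 members. Il23a was not matched. Given 5′ to 3′ on the gene's own strand are the 250 bases before the start of Il6 (chr5:30012864-30013113, plus strand) and Lif (chr11:4257318-4257567, plus strand), with motif matches in capitals.
Il6: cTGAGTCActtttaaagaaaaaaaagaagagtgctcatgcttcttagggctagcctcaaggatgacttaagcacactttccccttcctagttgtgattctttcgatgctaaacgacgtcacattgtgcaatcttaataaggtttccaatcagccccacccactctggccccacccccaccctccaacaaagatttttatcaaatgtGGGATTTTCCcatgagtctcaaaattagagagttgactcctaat
Lif: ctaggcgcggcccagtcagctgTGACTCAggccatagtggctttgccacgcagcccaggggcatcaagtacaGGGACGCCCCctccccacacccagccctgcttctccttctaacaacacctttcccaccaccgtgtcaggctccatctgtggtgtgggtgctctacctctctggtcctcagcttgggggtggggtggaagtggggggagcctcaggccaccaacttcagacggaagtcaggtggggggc
The windows of all matched members were searched on both strands for TTCNNNGAA (the core bound by STAT factors), TGANTCA (AP-1), TGACGTCA (the cyclic AMP response element), GCGNGGGCG (EGR factors) and the NF-kappaB consensus. The matches did not overlap each other. In the Il6 window the capitals mark an AP-1 match, TGAGTCA, 249 to 243 bases before the start, and an NF-kappaB match, GGGATTTTCC, 44 to 35 bases before it. In the Lif window they mark TGACTCA at 228 to 222 bases and GGGACGCCCC at 178 to 169 bases before the start. Among 32851 RefSeq promoter windows of the same length, 6.75% held the AP-1 motif, 7.25% the NF-kappaB consensus, 7.02% the STAT core, 1.55% the cyclic AMP response element and 4.7% the EGR motif. Il11, a ligand that was not called, also held an AP-1 match (TGAGTCA, 98 to 92 bases before the second of its starts). EGR matches stood before Lifr (first start, 91 to 83 bases) and Socs3 (181 to 173 bases). The STAT core was found in 1 member, Socs3, as TTCTTAGAA 154 to 146 bases before its start. A match is a run of letters and not a measured binding site.

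Total counts ran from 1820545 in Control 6 to 8291024 in Control 8, and 3 counts correspond to 0.336 to 1.64 CPM (counts relative to the TMM-scaled library size). Several libraries stood apart. The share of mitochondrial transcripts was 0.175% in Control 7 and 0.781% to 2.83% elsewhere. The 10 theca and stroma markers summed to 3096 CPM in Tyrphostin 5 and to 276 to 2170 CPM in the others. The 10 oocyte markers summed to 303 CPM in Tyrphostin 6 and to 19.4 to 123 CPM in the others. Granulosa markers dominated every library (79388 to 115737 CPM for 10 genes), although Amh and Foxl2 did not pass the filter (highest counts 4 and 30). Of the 8 granulosa markers tested, 5 were higher in Tyrphostin libraries (Fshr, Cyp19a1, Nr5a2, Hsd17b1 and Lhcgr, by 0.83 to 2.64 on the log2 scale, edgeR adjusted p under 0.05) and 0 lower, where 4.35% of all genes tested were called higher; the part of this in the results that follow was not tested.

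Il23a encodes the subunit that makes IL23 distinct from IL12. In batch 1 it had a lowest value of 9.56, a median of 19.6 and a highest value of 27.3 CPM in 6 Control libraries, against 0.861, 0.932 and 1.95 CPM in Tyrphostin 1, 2 and 3. In batch 2 the Control libraries 7 to 11 had 4.2, 12.8, 10.9, 17.4 and 7.9 CPM, and Tyrphostin 4, 5 and 6 had 1.51, 0.809 and 1.87 CPM. Every treated library lay below every Control library, with no overlap in either batch. Over all genes tested, 1% had all 6 treated libraries below all 11 Control libraries (6.46% of genes within batch 1 and 4.89% within batch 2); since Il23a was chosen for its fall, nothing is read from this. The group means were 14.9 CPM ± 7.27 (SD, n = 11) and 1.32 CPM ± 0.52 (SD, n = 6). With batch as a term the log2 fold change was -3.41 ± 0.36 (SE), 10.6-fold lower in treated follicles. It was -3.91 ± 0.45 in batch 1 and -2.88 ± 0.51 in batch 2 (SE). The treated values rested on 3 to 11 counts per library, 46 in all, so they lie close to the floor of 3 counts, and Tyrphostin 5 was on it. Il23a passed the filter only through its Control libraries. In Control follicles alone, a contrast that did not choose the gene, Il23a differed between batches by -0.75 ± 0.35 (SE; edgeR adjusted p = 0.16), which did not pass the threshold of 0.05.

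**Figure D1:**
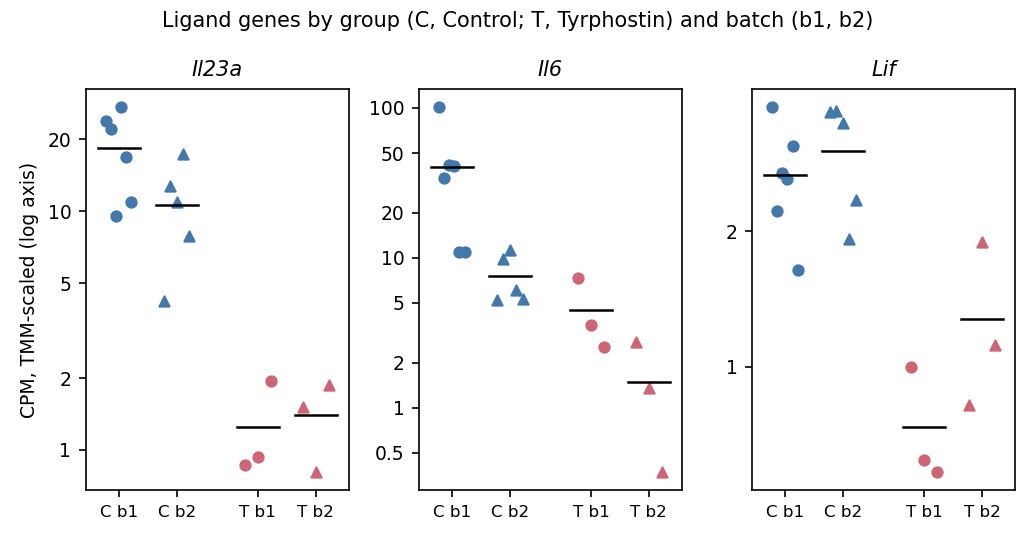
TMM-scaled CPM (log axis) of Il23a, Il6 and Lif in each library, by group (C, Control; T, Tyrphostin) and batch (b1, circles; b2, triangles), with bars at the mean of each group in each batch. Treated libraries of Il23a lie between 0.809 and 1.95 CPM, below all Control libraries. The Control mean of Il6 is higher in batch 1 than in batch 2, with ranges that overlap (10.9 to 101 and 5.25 to 11.3 CPM).

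Of the 8 other members tested, 2 were lower in Tyrphostin libraries at an adjusted p under 0.05 and none was higher. Over all 9603 genes, 10.6% were called, 6.25% lower and 4.35% higher. Both members that fell, Il6 and Lif, encode ligands. Lif passed the filter only through its Control libraries, so no pattern is read from this.

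Il6 encodes the founding cytokine of the family. Control libraries of batch 1 ranged from 10.9 to 101 CPM with a median of 37.7, and Tyrphostin 1, 2 and 3 had 7.32, 3.57 and 2.54 CPM. Control 7 to 11, in batch 2, had 5.25, 9.75, 11.3, 6.13 and 5.34 CPM, and Tyrphostin 4, 5 and 6 had 2.74, 1.35 and 0.373 CPM. Tyrphostin 5 rested on 5 counts and Tyrphostin 6 on 2, below the floor of 3 counts. Within batch 2, Il6 passed the filter through its Control libraries, the group where it was higher. Within each batch all 3 treated libraries lay below every Control library, as did 6.46% of all genes tested in batch 1 and 4.89% in batch 2. Across batches 5 of 6 treated libraries of Il6 did, and Tyrphostin 1, at 7.32 CPM, overlapped the Control range of batch 2. The log2 fold change was -2.79 ± 0.51 (SE; edgeR adjusted p = 0.00151), a 6.92-fold lower level. It was -3.14 ± 0.75 in batch 1 (SE; edgeR adjusted p = 0.0298, with 6.73% of genes called there, 3.79% lower and 2.94% higher) and -2.25 ± 0.54 in batch 2 (SE; edgeR adjusted p = 0.092, with 0.621% called, 0.427% lower). The batch 1 call was lost when any 1 of Tyrphostin 1, 2 or 3 was left out (edgeR adjusted p = 0.0681, 0.164 and 0.105). The batch 2 test passed without Control 7 (edgeR adjusted p = 0.044).

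Il6 also varied among Control follicles. Control libraries of batch 2 were 5.27-fold lower than those of batch 1, a log2 difference of -2.4 ± 0.52 (SE; edgeR adjusted p = 0.00888); in this contrast 14% of 6680 genes were called, 6.77% lower and 7.26% higher. Within batch 1 the library names divide Control into sets, and set 1 (Control 1 to 3) ran from 34.3 to 101 CPM while set 2 (Control 4 to 6) ran from 10.9 to 41.2 CPM. The treatment effect on Il6 did not differ between batches beyond its error (log2 difference 0.91 ± 1, SE; edgeR adjusted p = 1).

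Lif encodes leukemia inhibitory factor, which binds the receptor made by Lifr. Its counts were low, 3 to 33 in Control and 3 to 7 in Tyrphostin libraries. It passed the filter only through its Control libraries, the group where it was higher, and its call is read with that limit. Control values ran from 1.64 to 3.77 CPM with a median of 2.69. Tyrphostin 1 to 6 had 1, 0.622, 0.585, 0.823, 1.89 and 1.12 CPM, so 5 of 6 were below every Control library and Tyrphostin 5 overlapped them. The log2 fold change was -1.55 ± 0.33 (SE; edgeR adjusted p = 0.00298), or 2.92-fold lower. Lif did not pass the filter within batch 1; within batch 2 it was -1.28 ± 0.49 (SE; edgeR adjusted p = 0.345).

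Il11 encodes a cytokine that signals through its own receptor chain and Il6st. It had 0 to 10 counts in Control libraries (51 in all) and 0 to 9 in Tyrphostin libraries (16 in all), with 1 and 2 libraries at 0. The ranges, 0 to 2.7 and 0 to 1.4 CPM, overlapped. Fitted with no filter it gave a log2 difference of -1.28 ± 0.67 (SE; adjusted p in edgeR = 0.336) and was not called.

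Of 10 further ligands and receptors of the family, 2 were tested. Clcf1, which encodes a ligand of the ciliary neurotrophic factor receptor, fell from a Control mean of 13.3 CPM ± 3.39 (SD, n = 11) to 3.85 CPM ± 1.22 in treated libraries (SD, n = 6). Its log2 fold change was -1.8 ± 0.25 (SE; edgeR adjusted p = 3.7e-05), with -1.83 in batch 1 and -1.75 in batch 2. For Clcf1, 6 of 6 treated libraries were below every Control library, a pattern shared by 1% of all genes tested. Il11ra1, the receptor chain for IL11, had a log2 difference of 0.52 ± 0.37 (SE; adjusted p in edgeR = 0.422). Osm, Ctf1, Ctf2, Cntfr, Il31 and Il31ra had 3 to 24 counts summed over the 17 libraries, and Cntf had 0.

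None of the 8 other genes of the IL12 and IL23 family passed the filter. Il12b, the partner that the Il23a product needs to form IL23, had 1 count in all 17 libraries together, in Control 8. Il12a, the other partner of Il12b, also had 1. Il23r and Il12rb1, which form the IL23 receptor, had 4 and 19 counts. Il23a itself had 678 counts over the Control libraries and 46 over the Tyrphostin libraries.

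Leukocytes are a known source of Il23a, so their markers were read in the same libraries. Of 20 markers, 3 passed the filter (Cd14, Csf1r and Lyz2) and 0 of these were called. Itgam was at 0 in every library, and Ptprc had 44 counts in all, at most 10 in 1 library. The list summed to 22.5 to 504 CPM in Control (median 61.9) and 28.3 to 905 CPM in Tyrphostin libraries (median 55.8), much of it Lyz2. Without Lyz2 the ranges were 16.7 to 68 and 18.2 to 85.7 CPM, with medians of 26.8 and 21.8. The part of leukocytes in the Il23a values was not tested. In bulk samples fewer cells of a type and less RNA per cell cannot be told apart.

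None of the 4 receptor genes was called in either direction. Il6st, the shared signal chain, ranged from 58.3 to 135 CPM in Control (median 108) and from 61.1 to 255 CPM in Tyrphostin libraries (median 107). Its log2 difference of 0.23 ± 0.22 (SE; adjusted p in edgeR = 0.592) had an interval of ±2 SE from -0.22 to 0.68, and its sign turned without Tyrphostin 5 (-0.02). Il6ra, the ligand-binding chain for IL6, had 0 to 16 counts per library and a log2 difference of -0.73 ± 0.44 (SE; adjusted p in edgeR = 0.336).

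Lifr had 14.4 to 37.4 CPM in Control and 17.2 to 69 CPM in Tyrphostin libraries. In batch 1 the groups overlapped, with means of 18 CPM ± 2.11 (SD, n = 6) and 18.6 CPM ± 1.2 (SD, n = 3). In batch 2 the 3 treated libraries, at 52.7, 69 and 39.9 CPM, were above every Control library, the highest of which was 37.4 CPM. Of all genes tested in batch 2, 4.21% had this pattern, and in batch 1 5.04% did. The log2 fold change was 0.5 ± 0.2 over both batches (SE; edgeR adjusted p = 0.108), 0.06 ± 0.22 in batch 1 and 0.92 ± 0.3 in batch 2 (SE; edgeR adjusted p = 0.238). Without Tyrphostin 5, the library with 69 CPM and the highest theca and stroma sum, the Lifr difference was 0.36 over both batches (edgeR adjusted p = 0.283). In batch 2 it was then 0.71 (edgeR adjusted p = 0.653). The part of theca and stroma cells in the Lifr values was not tested. The interaction of treatment and batch was 0.88 ± 0.36 for Lifr and 0.9 ± 0.41 for Il6st (SE), each with an unadjusted p under the threshold (0.0226 and 0.0406) and an adjusted p of 1 in edgeR. Over all genes the interaction gave 0 calls in edgeR and 0 in DESeq2, and 342 and 413 at an unadjusted p under 0.05.

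Osmr encodes the oncostatin M receptor chain. In batch 1 the Control libraries ran from 16.4 to 40.6 CPM (median 27.5) and Tyrphostin 1, 2 and 3 had 9.76, 11.5 and 11.9 CPM, without overlap. Of all genes tested in batch 1, 6.46% had every treated library below every Control library. In batch 2 Control 7 to 11 had 29.9, 57, 26.5, 53.5 and 25.2 CPM, and Tyrphostin 4, 5 and 6 had 11.5, 49.9 and 24.2 CPM. Tyrphostin 5 was the treated library inside the Control range of batch 2. The log2 fold change was -0.88 ± 0.3 (SE; edgeR adjusted p = 0.0655), -1.34 ± 0.31 in batch 1 (SE; edgeR adjusted p = 0.013, or 0.0592 without Tyrphostin 1) and -0.45 ± 0.45 in batch 2 (SE; edgeR adjusted p = 0.809). Without Tyrphostin 5 it was -1.24 ± 0.27 (SE; edgeR adjusted p = 0.00415), and over the omission of each library in turn the adjusted p ran from 0.00415 to 0.163. Tyrphostin 5 also had the highest sum of theca and stroma markers, 3096 CPM against 281 to 1097 in the other treated libraries; the part of these cells in the Osmr values was not tested.

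**Figure D2:**
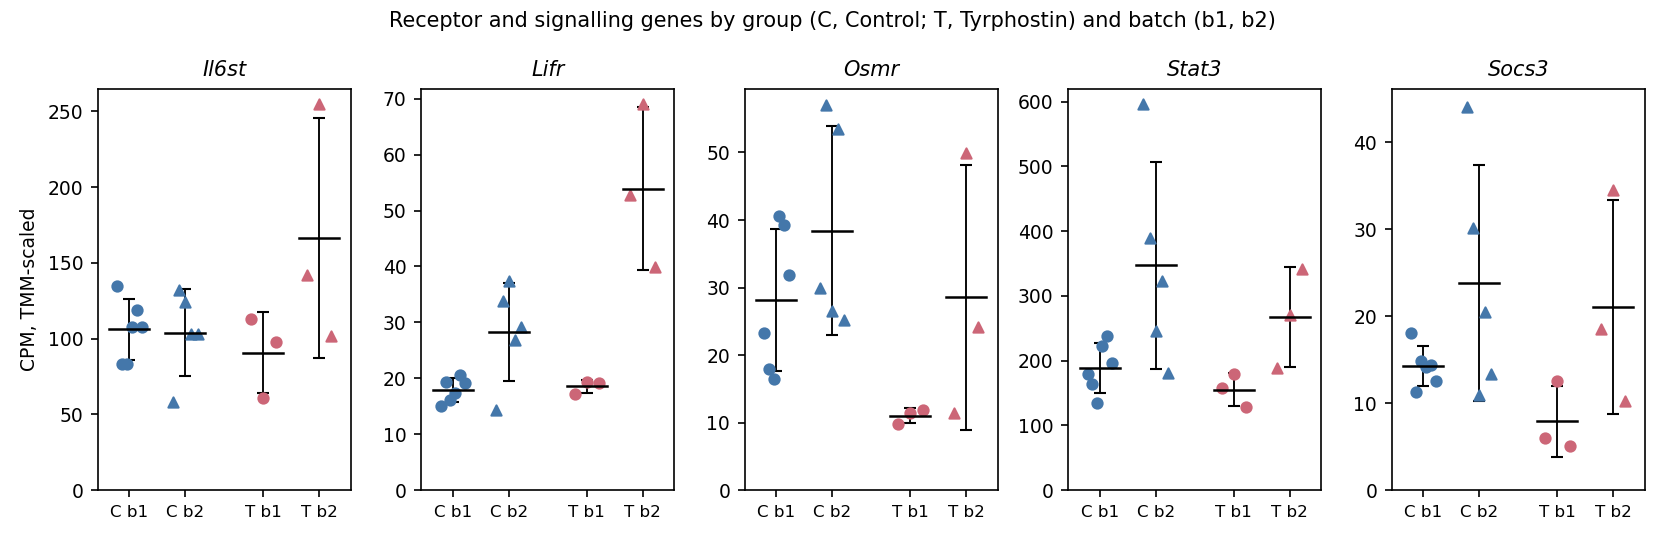
TMM-scaled CPM (linear axis) of receptor and signalling genes in each library, by group (C, Control; T, Tyrphostin) and batch (b1, circles; b2, triangles), with mean and SD. The groups do not overlap for Lifr in batch 2 or for Osmr in batch 1, and overlap for Lifr in batch 1 and Osmr in batch 2. Of all genes tested, 4.21% lay wholly above Control in batch 2 and 6.46% wholly below it in batch 1.

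Stat3 had the highest mean level per length of the members, It had 134 to 596 CPM in Control (median 223) and 128 to 342 CPM in Tyrphostin libraries (median 184), and the groups overlapped. The log2 fold change was -0.33 ± 0.21 (SE; edgeR adjusted p = 0.377), with ±2 SE from -0.75 to 0.1. Socs3, the feedback inhibitor that STAT3 induces, had 10.9 to 44.1 CPM in Control and 5.07 to 34.5 CPM in Tyrphostin libraries. The log2 difference was -0.51 ± 0.3 (SE; edgeR adjusted p = 0.317), with ±2 SE from -1.1 to 0.08. In batch 1, where its Control values ran from 11.3 to 18.1 CPM, 2 of 3 treated libraries were below all of them, and its adjusted p in edgeR was 0.115, or 0.0261 without Tyrphostin 2. In Control follicles Stat3 was higher in batch 2 by 0.9 ± 0.26 (log2, SE; edgeR adjusted p = 0.0306). That call was lost when any 1 of Control 1, 2, 3, 7, 8 or 10 was left out (highest edgeR adjusted p = 0.0744, without Control 3). The 5 batch 2 Control values of Stat3 were 596, 390, 245, 323 and 181 CPM, the highest in Control 7, which also had the low mitochondrial share.

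**Figure D3:**
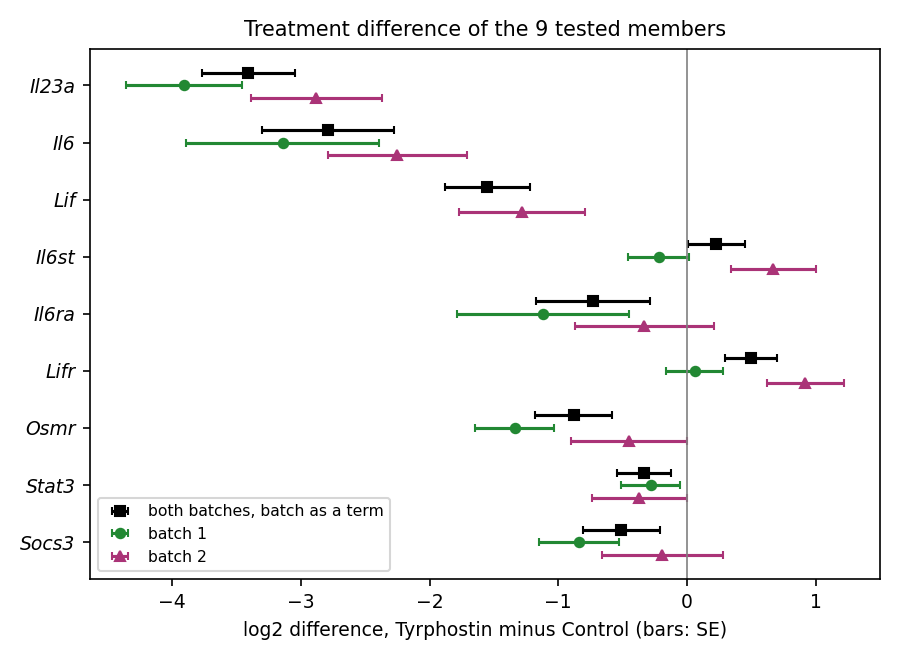
Log2 difference between Tyrphostin and Control libraries for the 9 members tested, with SE, over both batches and within each; Lif was below the filter in batch 1. Il23a, Il6 and Lif lie left of -1 wherever shown, and the receptors lie on both sides of 0.

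The kinases, STAT factors and regulators downstream of these receptors were mostly not called. Of 29 genes, 25 were tested, 1 was called lower and 1 higher, beside 6.25% lower and 4.35% higher over all genes tested, so the share called in this list was near the background. The median log2 fold change was 0.01, beside 0 over all genes tested. Socs2, an inhibitor of growth hormone and prolactin signalling, rose from a Control mean of 410 CPM ± 63.9 (SD, n = 11) to 787 CPM ± 275 in treated libraries (SD, n = 6), a log2 difference of 0.93 ± 0.18 (SE; adjusted p in edgeR = 0.00137). Cish, its relative and a STAT5 target, fell by 0.78 on the log2 scale (edgeR adjusted p = 0.0312). That call was lost without any 1 of Control 3, Control 4, Tyrphostin 1, Tyrphostin 3 or Tyrphostin 6 (highest edgeR adjusted p = 0.0942) and in 6 of 11 other settings, with the highest adjusted p, 0.289, when batch was not a term. Jak1, the main kinase bound to the shared receptor chain, had a log2 fold change of -0.26 ± 0.14, and Jak2 and Tyk2 of -0.05 ± 0.31 and -0.04 ± 0.28 (SE); none was called. Adam10 and Adam17, proteases that release receptors and ligands from the cell surface, gave 0.18 ± 0.19 and 0.01 ± 0.16 (SE).

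Among 22 genes known as STAT3 targets, 17 were tested, 6 were called lower and 0 higher, beside 6.25% lower and 4.35% higher over all genes tested. Of the 17, 13 had a negative and 4 a positive log2 fold change, with a median of -0.37. All 6 that fell, Timp1, Junb, Myc, Hif1a, Bcl6 and Pim1, also answer to signals other than STAT3. Which signal lay behind their lower levels was not tested. Timp1, an inhibitor of matrix metalloproteinases, fell from a Control mean of 177 CPM ± 111 (SD, n = 11) to 42.4 CPM ± 19.2 in treated libraries (SD, n = 6), a log2 difference of -2.05 ± 0.38 (SE; adjusted p in edgeR = 0.00151). Junb, an AP-1 subunit, fell from 1489 CPM ± 474 to 503 CPM ± 130. Its 6 of 6 treated libraries were below every Control library, which held for 1% of all genes tested. Myc and Hif1a changed by -1.32 ± 0.28 and -0.98 ± 0.17 (log2, SE). Bcl6, a transcriptional repressor, changed by -0.89 ± 0.2 and the kinase gene Pim1 by -0.89 ± 0.28 (log2, SE; edgeR adjusted p = 0.0055 and 0.0454). For Pim1, 10 of the 17 omissions of a single library ended the call, and the highest adjusted p in edgeR was 0.131, without Tyrphostin 2. It was also lost in 4 of 11 other settings, with an adjusted p of 0.0554 to 0.115. The 4 targets on the positive side, Cebpd, Birc5, Icam1 and Saa3, had log2 fold changes of 0.96, 0.66, 0.62 and 0.28 and were not called. The other 7 that were not called lay between -0.94 (Klf4) and -0.07 (Il4ra).

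Cytokines and chemokines outside the family were mostly too low to test, with 9 of 25 passing the filter. Il33 and Il1r1 were called lower and 0 were called higher, beside 6.25% and 4.35% over all genes tested; the median log2 fold change was -0.49. Il33, an alarmin cytokine of the IL1 family, had 2.19 to 68.8 CPM in Control (median 4.31) and 0.39 to 1.87 CPM in Tyrphostin libraries. The treated range of Il33 lay wholly below the Control range, a pattern shared by 1% of all genes tested. The log2 difference was -3.02 ± 0.71 (SE; edgeR adjusted p = 0.0102), and -2.51 without Control 10, the library with 68.8 CPM. It was -1.53 in batch 1 and -4.5 in batch 2. Treated libraries held 2 to 13 counts of Il33, 42 in all, and 4 to 8 in batch 2, close to the floor of 3 counts. Il33 passed the filter only through its Control libraries, so the size of these differences is uncertain. Il1r1, the receptor for IL1, fell from a Control mean of 362 CPM ± 131 (SD, n = 11) to 141 CPM ± 40.9 in treated libraries (SD, n = 6), a log2 difference of -1.27 ± 0.22 (SE; adjusted p in edgeR = 0.000356). The neutrophil chemokine Cxcl1 was abundant in both groups, at 2159 CPM ± 1257 (SD, n = 11) and 1832 CPM ± 623 (SD, n = 6). It had a log2 difference of -0.14 ± 0.34 (SE; adjusted p in edgeR = 0.856).

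**Figure D4:**
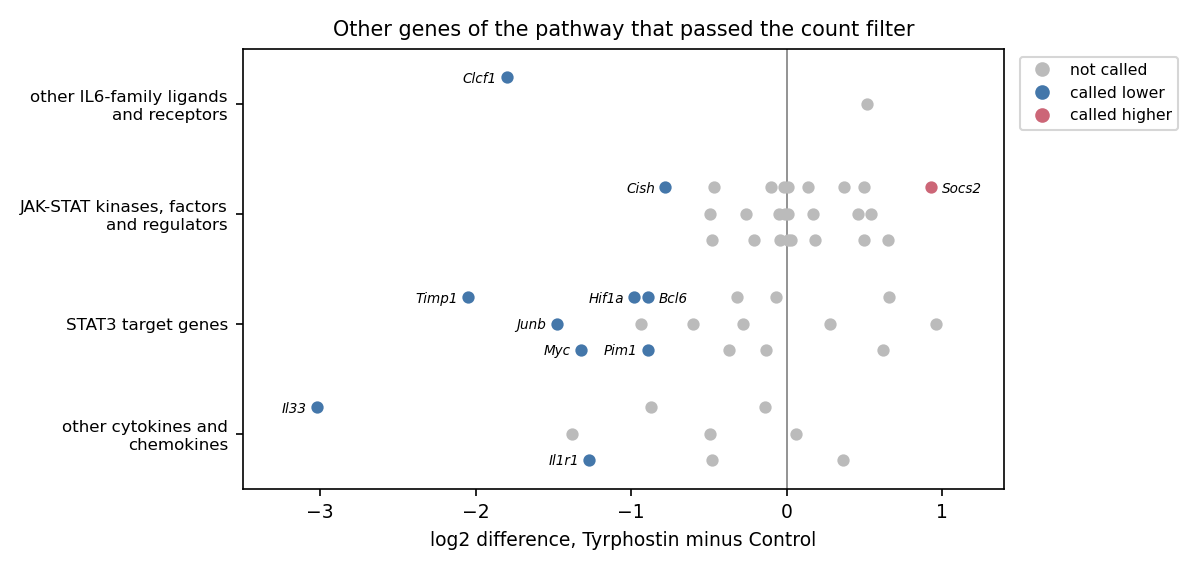
Log2 difference between Tyrphostin and Control for the genes of 4 lists that passed the filter, 1 point per gene, coloured by call (edgeR adjusted p under 0.05) and named where called. Calls are lower in each list apart from Socs2; Clcf1 and Il33 lie far to the left.

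Levels were compared between members per length, as CPM per kilobase of exon in GENCODE M21 (GRCm38). In Control follicles the order of the means was Stat3 27.4 ± 14, Il6 10.4 ± 11.9, Il6st 9.46 ± 2.07, Il23a 6.64 ± 3.24, Socs3 6.43 ± 3.48, Osmr 2.71 ± 1.11, Lifr 2.1 ± 0.733, Lif 0.651 ± 0.174, Il11 0.554 ± 0.424 and Il6ra 0.272 ± 0.128 CPM per kilobase (SD, n = 11). Lifr and Lif were the neighbours in this order whose ranges did not overlap. Socs3 exceeded Osmr in 11 of 11 Control libraries, although their ranges overlapped, and Il6 exceeded Il6st in 4 of 11. Il23a thus had a level per length near that of Socs3 in Control follicles, and in Tyrphostin libraries it had 0.588 ± 0.232 CPM per kilobase against 5.01 ± 3.78 for Socs3 (SD, n = 6). Il6ra, the chain that binds IL6, had the lowest mean of the members in both groups.

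**Figure D5:**
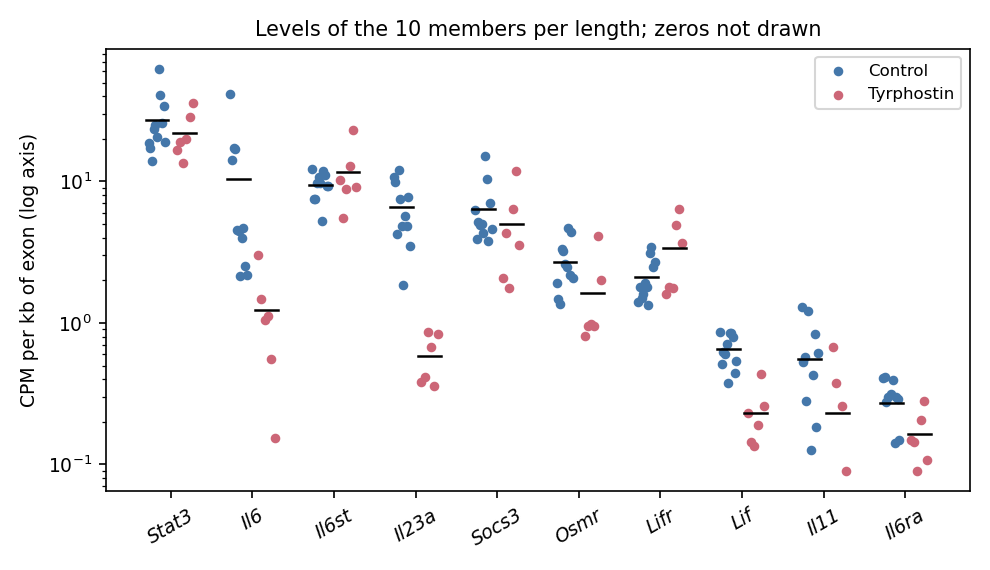
CPM per kilobase of exon (log axis) for the 10 members in each Control and Tyrphostin library, ordered by the Control mean, with bars at group means; libraries at 0 are not drawn. Il23a sits between Il6st and Socs3 in Control and falls from 6.64 to 0.588 on average in Tyrphostin libraries.

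All 10 members are annotated as protein-coding genes (GRCm38, GENCODE M21). Il23a (ENSMUSG00000025383.2) is at chr10:128296139-128298752 on the minus strand, Il6 at chr5:30013114-30019981 on the plus strand and Lif at chr11:4257557-4272514 on the plus strand. Osmr and Lifr are both on chromosome 15, at 6813577 to 6874969 and 7090614 to 7197489.

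The pattern of Il23a over Control follicles was compared with that of 6319 genes, as Pearson r of log2 CPM over the 11 Control libraries after subtracting each batch's mean. The most alike were Cd47 and Cetn2 (r = 0.9 each), then Unc13a, Acap2 and Polr3f (r = 0.87 each). These are the highest of many values over few libraries, which share depth and scaling, and are given as a description. None of the 5 was called between Tyrphostin and Control (Cd47 log2 fold change 0.05 ± 0.17, SE). Of the other members, Il6st had r = 0.63, Lifr 0.49, Osmr 0.47 and Il6 0.41 with Il23a, while Lif had -0.03, Stat3 -0.11 and Socs3 -0.26.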

How the data were processed

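The deposited table holds raw gene counts, as whole numbers, for 17 libraries. STAR and HTSeq and the build GRCm38 are named per the submitters' processing notes, without version or role; annotation, strandedness and filters are not given in the sources used here. Columns were matched to samples by the names in the labels.

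Differential expression was tested with edgeR 4.0.16 (R 4.3.3): filterByExpr on treatment, TMM scaling, estimateDisp, robust glmQLFit and the quasi-likelihood F test, with batch as a term and Benjamini-Hochberg adjustment over all genes tested (threshold 0.05). SE is the log2 fold change divided by the square root of F. Alternatives used DESeq2 1.42.0, limma 3.58.1 (voom), other scalings and filters, no batch term, replicate blocks, Control libraries summed by set, and omission of each library. The code was tested on simulated data. Overlapping genes may share reads.

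The members, gene lists and tests were chosen with earlier results of these data known. Genes named were all members and, from each list, the called genes, with a few list members that were not called added after their values were seen; genes most like Il23a were the 5 with the highest r among those with an average log2 CPM of at least 3, leaving out clone and model identifiers. One listed gene below the filter is not reported here. Smart-Seq2 reads carry no molecular identifiers, so floors cover counting error only.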

Additional observations from a re-analysis of the deposited data

Results flagged for a closer look

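Libraries far from the others were looked for, member by member, in the CPM of Control batch 1, Control batch 2 and Tyrphostin, 30 groups in all, and 3 had one. A nominal rate of 1 in 20 groups would give 1.5. That rate was not checked for CPM in groups this small, so nothing is read from the count. Il6 reached 101 CPM in Control 1, against 10.9 to 41.8 CPM in the other Control libraries of batch 1. Leaving out Control 1 moved the Il6 log2 difference from -2.79 to -2.47. Il6ra was at 0 CPM in Control 5, against 2.39 to 3.56 CPM in the other Control libraries of batch 1. Osmr reached 49.9 CPM in Tyrphostin 5, against 9.76 to 24.2 CPM in the other Tyrphostin libraries; Tyrphostin 5 also had the highest theca and stroma sum (3096 CPM) and leukocyte sum (905 CPM), whose part in this value was not tested.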

How the results depend on the processing

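The log2 fold change of Il23a, whose direction was set by its choice, ran from -3.86 to -3.28 over 11 other settings and from -3.6 to -3.24 over 17 omissions of a library. Il6 and Lif kept their calls in every setting in which they could be fitted (highest adjusted p 0.0211 for Il6, without the batch term, and 0.0232 for Lif, with no filter) and in all omissions. The 1018 genes called over all libraries became 619 when batch was not a term, and 708 (without Tyrphostin 1) to 1314 (without Control 7) over omissions. With total-count scaling 64.4% of calls were higher (715 higher, 396 lower), against 41.1% (418 and 600), the median of all genes moved to 0.15, and 1 member, Lifr, was called higher (0.65, adjusted p = 0.0484). DESeq2 and limma-voom called Osmr lower (adjusted p = 0.0283 and 0.0336). Of the listed genes, 2 were called higher with limma-voom in place of 1. Within batch 2 the count, 61, was 303 with DESeq2, 222 with no filter and 11 (without Tyrphostin 6) to 221 (without Control 7) over omissions. Within batch 1, 634 became 394 (without Tyrphostin 2) to 687 (without Control 6). The interaction gave 79 with no filter, and DESeq2 called 1473 genes between Control batches in place of 937. The causes were not tested.

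Signs that turned belonged to values near 0 or to interactions. Il6st between Control batches, 0, was -0.02 with RLE scaling, -0.02 with DESeq2, -0.01 with no filter and -0.1 to 0.16 over omissions. Over omissions Il6st ran from -0.02 to 0.39 in all libraries and -0.4 to 0.01 in batch 1, Socs3 in batch 2 from -0.74 to 0.14, and the interactions of Il6 and Stat3 from -0.03 to 1.47 and -0.31 to 0.19.

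Control 1 to 6 and Tyrphostin 1 to 6 share numbers in the labels, but numbers 4 to 6 cross batches. The deviations of same-numbered libraries from their group means correlated with r = 0.47, 0.31, 0.38, 0.01, -0.13 and -0.06. Batch means were not removed from these. Among Control 1 to 6, 5 of 6 Tyrphostin libraries correlated best with their own number, although for numbers 4 and 6 that r was 0.01 and -0.06. Because numbers 4 to 6 cross batches, the libraries were not treated as pairs in the main fit. For numbers 1 to 3, which lie in batch 1, a link between same-numbered libraries remains possible. A fit with the number as a replicate block gave 624 calls over all genes. It called 1 member lower, Il6 (-3.68, edgeR adjusted p = 2.97e-06). In this fit numbers 4 to 6 differ in both treatment and batch, and inform the batch term. The treatment difference therefore rests on numbers 1 to 3, whose Control libraries are set 1, with the higher Il6 mean in batch 1. Lif did not pass the filter with these 12 libraries, Il6st was -0.16 and the Bcl6 call was lost (edgeR adjusted p = 0.321). The Control library names also carry set numbers 1, 2, 4, 5 and 6, which match Tyrphostin numbers and lie in the same batch. With group means removed, Control set means and the same-numbered Tyrphostin library correlated with r = 0.49, 0.14, 0.32, -0.07 and 0.35, and 3 of 5 best with their own set. These values still hold the batch difference. With batch means also removed, r was 0.11, 0.01, -0.04, -0.27 and 0.11, so sets and Tyrphostin libraries were not treated as pairs either. A replicate block by set number, an alternative chosen after seeing the data, gave 986 calls; Il6 and Lif stayed called (-2.61 and -1.5, adjusted p = 0.000842 and 0.0138), Lifr was 0.51 (adjusted p = 0.132), and the Cish call was lost (0.0841).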
